A study of Mus musculus with 20 samples.

Results

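The 4 libraries from mice after 4 days of high-fat feeding were compared with the 4 libraries from mice on chow at day 0. They are 8 of the 20 RNA sequencing libraries in the series and were chosen by the diet and time in their labels. All 8 came from epididymal fat, the visceral fat pad beside the epididymis, of male C57BL6/J mice, an inbred laboratory strain. The day 4 mice had been fed chow and were switched to a high-fat diet for 4 days, and the chow mice were sampled without the switch. No transgene, deletion or drug is named for either group, and the age of the mice and the make-up of the diets are not given in the sources used here. The remaining 12 libraries, 4 each from days 2, 6 and 14 of high-fat feeding, were in the same model and are used here only to place day 4 within the course. Of 39179 gene IDs in the table, 15254 passed a low-count filter and were tested.

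White fat answers a surplus of dietary fat by enlarging its adipocytes and, in the epididymal depot, by letting progenitor cells divide and make new ones. Cells that enter division switch on replication genes through E2F transcription factors, and later switch on the genes of mitosis through a complex that binds CHR elements in their promoters. The enlarging pad also rebuilds the collagen mesh around its cells, and the adipocytes adjust their synthesis of lipids and their secretion of hormones such as leptin.

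The totals were 4578703 to 16274913 counts in day 4 libraries and 8279454 to 38832429 counts in chow libraries. All 12 markers on the adipocyte list were detected, and they summed to 30613 to 54265 CPM (counts scaled to the size of the library) on day 4 and to 36789 to 63899 CPM on chow. Day 4 replicates 2 to 4, at 30613 to 34901 CPM, lay below all of the chow libraries, and replicate 1, at 54265 CPM, lay within their range. Of these 12 markers 1 rose and 4 fell, with a median log2 change of -0.09, and without chow replicate 4 and day 4 replicate 1 there were 1 rise and 6 falls, with a median of -0.37. Cfd, the protease adipsin, alone held 956 to 1207 CPM of the sum in day 4 replicates 2 to 4, against 6624 to 16582 CPM on chow. In the full fit 7 of the 12 markers were not called, Fabp4, Pparg and Lipe among them. The division, matrix and endothelial changes are also strongest in day 4 replicates 2 to 4. The part of this lower marker sum in them was not tested. Chow replicate 4 differed from its group, and 288 of the genes tested were more than 4-fold higher in it than in any of chow replicates 1 to 3. Keratin-bearing epithelium markers summed to 4.96 to 18.2 CPM on day 4, against 16.6 to 227 CPM on chow, where the highest value without replicate 4 was 23.6 CPM. Markers of epididymis, vas deferens and testis summed to 0.210 to 1.11 CPM on day 4, against 0.354 to 83.0 CPM on chow and at most 0.814 CPM without replicate 4. In chow replicate 4, Cuzd1 alone made up 80.1 of the 83.0 CPM. It was the only 1 of these 17 markers to pass the low-count filter. Lcn5, Defb1, Spint4, Ovch2 and Tnp1 were at 0 in all 8 libraries. Day 4 replicate 1 stood apart in another way: its log2 CPM correlated across genes at 0.961 to 0.972 with the other day 4 libraries and at 0.963 to 0.981 with chow replicates 1 to 3. With the libraries of days 2, 6 and 14 its correlations were 0.961 to 0.989, the highest with day 2 replicate 3. Day 4 replicates 2 to 4 correlated with each other at 0.973 to 0.981. The labels call the libraries biological replicates and give no batch, so p-values measure the spread between these samples. In a bulk tissue sample, fewer cells of a type and less of an RNA in each cell cannot be told apart.

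Day 4 differed from chow in 5381 genes, 35.3% of those tested, at a Benjamini-Hochberg adjusted p under 0.05 in edgeR's quasi-likelihood test. Of these, 2741 rose (18% of genes tested) and 2640 fell (17.3%). The counts for gene lists given below are to be read against these shares. The typical rise was small, with a median log2 change of 0.57 and 651 rises above 2-fold, and 233 rises were above 4-fold. Falls had a median log2 change of -0.83, with 1084 falls beyond 2-fold and 350 beyond 4-fold. The median level of the genes that rose was 38.5 CPM, and of those that fell it was 13 CPM. Over all genes tested the median log2 change was -0.02.

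The call was kept in the full fit and in all 8 fits that left out 1 of the 8 libraries by 2886 genes (18.9%), of which 1567 rose (10.3%) and 1319 fell (8.65%). Without day 4 replicate 4 the number called was 3225, and without chow replicate 4 and day 4 replicate 1 together it was 4851 (31.8%). When libraries were scaled by their size alone, the median of all genes shifted to -0.13 and the 5431 calls split into 1750 rises and 3681 falls, so the values given are relative to the scaling by trimmed means (TMM).

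**Figure D1:**
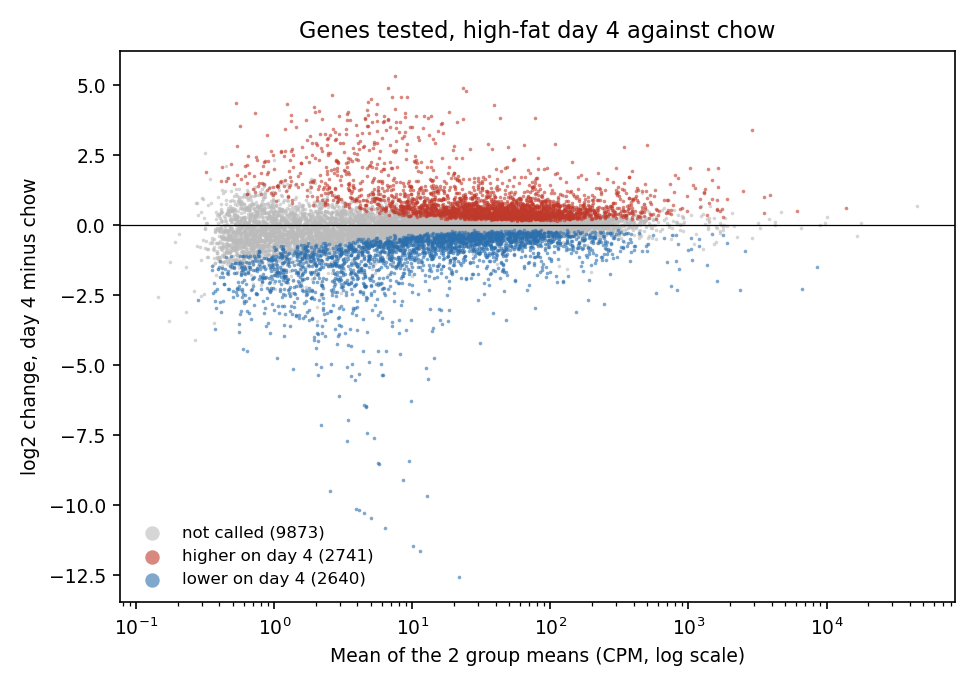
Each point is 1 of the 15254 genes tested, with the mean of both groups' CPM on a log scale across and the log2 change of day 4 minus chow upwards. Red points are the 2741 genes called higher, blue points the 2640 called lower and grey points the rest, and the falls reach further from 0 than the rises, below -10 for a few genes of the epithelium that marks chow replicate 4.

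Cell division genes rose nearly throughout. On the list of mitosis and cytokinesis genes 60 of 61 members rose and 1 fell, with a median log2 change of 3.28. On the list of DNA replication and S phase genes 38 of 48 rose and none fell, with a median of 1.13. To show what their promoters look like, stretches around a searched motif are given for the 3 called members of each list with the smallest adjusted p whose window held it. Sequences are from RefSeq (GRCm38.p6), read 5′ to 3′ on the strand of the gene, and were searched on both strands from 250 bases before the start of the gene to the start itself. Capitals mark the match.

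For the replication genes the capitals mark TTTNNCGC, a spelling of the E2F site, or its reverse complement. Where 2 matches overlap, as in Dnmt1 and Mcm5, the capitals cover both.
Uhrf1, chr17:56303241-56303328, plus strand: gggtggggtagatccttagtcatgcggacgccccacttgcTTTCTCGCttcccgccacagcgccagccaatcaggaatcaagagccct
Dnmt1, chr9:20952793-20952873, minus strand: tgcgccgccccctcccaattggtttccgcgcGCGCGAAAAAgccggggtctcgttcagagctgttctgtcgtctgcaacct
Mcm5, chr8:75109316-75109407, plus strand: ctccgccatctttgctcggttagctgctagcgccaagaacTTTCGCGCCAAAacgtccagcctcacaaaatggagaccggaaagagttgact

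For the mitosis genes the capitals mark TTTGAA, the core of the CHR element, or its reverse complement.
Mki67, chr7:135716432-135716535, minus strand: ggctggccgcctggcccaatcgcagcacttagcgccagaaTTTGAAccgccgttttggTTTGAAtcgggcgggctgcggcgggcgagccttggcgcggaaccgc
Ube2c, chr2:164769860-164769928, plus strand: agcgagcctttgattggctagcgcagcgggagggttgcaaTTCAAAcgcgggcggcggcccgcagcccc
Top2a, chr11:99024190-99024408, minus strand: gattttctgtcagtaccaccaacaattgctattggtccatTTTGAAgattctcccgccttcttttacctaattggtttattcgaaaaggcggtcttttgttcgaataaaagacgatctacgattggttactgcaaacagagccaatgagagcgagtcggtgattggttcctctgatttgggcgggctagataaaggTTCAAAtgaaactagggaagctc

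A window was at hand for 49 of the 61 mitosis genes, and 17 of them (34.7%) held TTTGAA, against 13.1% of the 11162 tested genes with a window and 16% of all 32851 windows. Of the 39 replication genes with a window 10 (25.6%) held TTTNNCGC, against 7.88% of tested genes and 4.28% of all windows. The letters CCAAT, the core of the NF-Y site, were held by 33 of the 49 mitosis genes and 25 of the 39 replication genes. The shares were 39.9% of tested genes and 33.9% of all windows. CCAAT was not particular to division genes, and 16 of the 18 cholesterol genes with a window also held it. Among all genes higher on day 4 with a window, 12.6% held TTTGAA. A gene was counted when any of its windows held the letters, so shares of genes and shares of windows are unlike measures. These matches describe the letters in the windows and do not show binding.

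Uhrf1, which guides DNA methylation to newly copied strands, measured 6.17, 43.5, 33.5 and 39.0 CPM on day 4, against 2.62, 1.98, 3.09 and 4.14 CPM on chow. Day 4 replicate 1 was the lowest day 4 library but lay above all of the chow libraries. Uhrf1 rose by 3.30 ± 0.54 on the log2 scale (SE, with edgeR adjusted p = 0.00104). Its partner Dnmt1, the maintenance DNA methyltransferase, measured 37.6, 85.9, 73.2 and 80.9 CPM on day 4, against 31.9, 30.1, 31.5 and 29.4 CPM on chow, again without overlap, and rose by 1.17 ± 0.21 (adjusted p = 0.00132 in edgeR). Ccne1, the cyclin that drives entry into S phase, rose by 1.67 ± 0.29, and the helicase component Cdc45 by 0.97 ± 0.17. The ribonucleotide reductase subunit Rrm2 rose by 3.23 and the helicase subunit Mcm5 by 2.07 on the log2 scale. Among the members that did not pass were the flap endonuclease Fen1 at 1.09 and Mcm7 at -0.01.

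Foxm1, the transcription factor that drives the genes of mitosis, measured 4.51, 43.9, 34.0 and 36.9 CPM on day 4, against 2.50, 1.39, 2.86 and 2.49 CPM on chow. The groups did not overlap, and replicates 2 to 4 of day 4 were far above both replicate 1 and chow. Foxm1 rose by 3.61 ± 0.62 (SE; edgeR adjusted p = 0.00116). Mki67, the proliferation marker Ki-67, measured 21.4, 208, 175 and 175 CPM on day 4, against 10.3, 4.65, 15.9 and 8.32 CPM on chow, and rose by 3.82 ± 0.68 (edgeR adjusted p = 0.00125). Aurkb, a kinase that corrects chromosome attachment, rose by 3.12 ± 0.54, and Pbk, a mitotic kinase, by 4.33 ± 0.70. Pttg1, which encodes securin, was the member that fell, by 0.54 on the log2 scale. Without any overlap between the libraries of the groups, 45 of the 61 mitosis genes were higher on day 4 and 1 was lower, against 15.2% and 15% of all genes tested.

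The division genes were low in day 4 replicate 1. The mean over the mitosis list, in log2 CPM relative to the chow mean, was 0.66, 3.54, 3.30 and 3.29 in the day 4 libraries, against 0.00, -0.50, 0.42 and 0.08 in the chow libraries. Replicate 1 lay nearer to chow than to the other day 4 libraries, although above all of the chow libraries. The totals of day 4 replicates 1 to 4 were 16274913, 4713573, 4578703 and 15593689 counts, and the part of depth was not tested.

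Genes that hold back the cell cycle changed in both directions. Of 29 tested cell cycle brakes and p53 targets 9 rose and 6 fell, against 18% and 17.3% of all genes tested. Their median log2 change was 0.27. Cdkn1b, the inhibitor p27 that keeps resting cells out of the cycle, measured 32.2, 26.3, 32.4 and 22.6 CPM on day 4, against 47.4, 51.0, 51.9 and 47.1 CPM on chow. All of the day 4 libraries lay below all of the chow libraries, and replicate 1 was as low as replicate 3. Cdkn1b fell by 0.80 ± 0.13 on the log2 scale (SE; edgeR adjusted p = 0.00104). Cdkn2b, the inhibitor p15, measured 26.5, 28.8, 24.9 and 45.8 CPM on day 4, against 13.3, 5.70, 8.68 and 7.04 CPM on chow, and rose by 1.86 ± 0.36 (edgeR adjusted p = 0.00160).

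Phlda3, a p53 target that restrains AKT, rose by 1.20 ± 0.24, and Cdkn1c, the inhibitor p57, fell by 1.09. Cdkn1a, the p53-induced inhibitor p21, measured 74.8, 172, 124 and 209 CPM on day 4, against 67.4, 78.2, 11.5 and 57.7 CPM on chow. The groups overlapped at replicate 1 of day 4. Its rise of 1.45 ± 0.52 (edgeR adjusted p = 0.0369) was no longer called without day 4 replicate 2 (0.0769), 3 (0.0523) or 4 (0.123) or chow replicate 3 (0.0787) or 4 (0.0693). Of 48 growth factors and their receptors 7 rose and 12 fell, against 18% and 17.3% of all genes tested, and 7 were called in all without day 4 replicate 4. Among them the activin-type receptor Acvr1c fell by 1.23 ± 0.22, Fgf2 by 1.60 ± 0.35 and Fgf1 by 0.61 ± 0.12, while Tgfb1 rose by 0.69 ± 0.16.

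**Figure D2:**
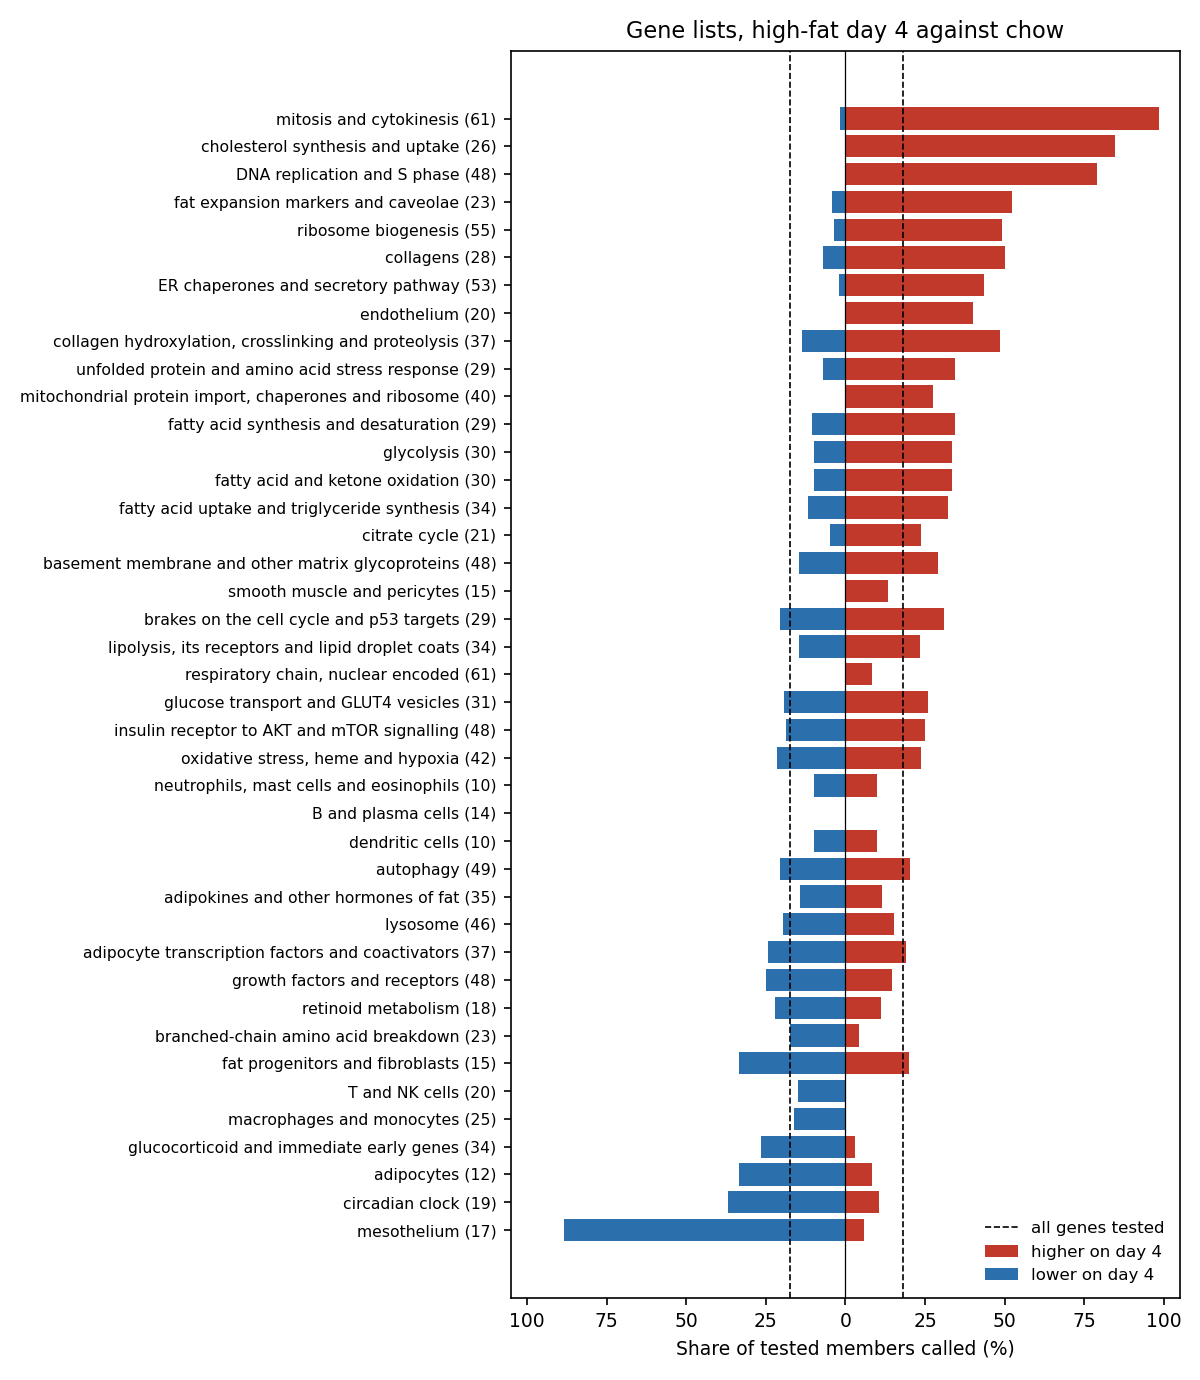
Bars give the share of tested members of each gene list called higher (red, to the right) or lower (blue, to the left) on day 4 than on chow, in percent, with the number tested in brackets, for lists with at least 10 tested members. Dashed lines mark 18% and 17.3%, the shares over all genes tested, and the mitosis list at the top and the mesothelium list at the bottom lie furthest from them.

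The largest rises named by the rule held the mitosis genes Pimreg, Pbk and Kif18b and 9 further genes. Slc5a7, the choline transporter of cholinergic neurons, measured 15.3, 70.4, 31.1 and 62.0 CPM on day 4, against 1.45, 1.74, 0.709 and 2.21 CPM on chow, and rose by 4.90 ± 0.88 (log2, SE; edgeR adjusted p = 0.00131). Bpifb6, of a family of lipid-binding proteins, measured 3.88, 12.4, 15.1 and 20.3 CPM on day 4, against 0.640, 0.465, 0.228 and 0.467 CPM on chow, and rose by 4.90 ± 0.78. Neither gene overlapped between the groups, and in both replicate 1 was the lowest on day 4.

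Ncan, a chondroitin sulfate proteoglycan known from brain, measured 20.9, 70.8, 92.8 and 110 CPM on day 4, against 6.17, 3.02, 3.06 and 2.93 CPM on chow, and rose by 4.28 ± 0.76. Tph2, the neuronal tryptophan hydroxylase of serotonin synthesis, measured 2.16, 22.7, 19.97 and 18.2 CPM on day 4, against 0.814, 0.581, 0.380 and 0.841 CPM on chow, and rose by 4.56 ± 0.86. In Tph2 day 4 replicate 1 was close to the chow range, and replicates 2 to 4 lay together far above it. Dio2, which converts thyroxine to active thyroid hormone, measured 9.28, 6.72, 6.88 and 13.5 CPM on day 4, against 0.640, 0, 0.405 and 0.530 CPM on chow, and rose by 4.38 ± 0.78 (edgeR adjusted p = 0.00125). Here replicate 1 was among the higher day 4 libraries. The rule also named Grid1, a glutamate receptor of the delta family (4.59 ± 0.94), Lipf, known as gastric lipase (4.31 ± 0.86), Plppr4 (4.15 ± 0.66) and the proton channel gene Otop1 (4.04 ± 0.70).

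Many of the largest falls rested on chow replicate 4. Of the 350 falls beyond 4-fold, 197 were still called without it, and of the 233 rises above 4-fold, 230 were. It was more than 4-fold above each of the other chow libraries for 195 of the genes that fell, of which 41 were still called without it. The named falls Ptgds, Egfl6, Nme5, Ano9, Spag8, Dnah1, Cfap69, Gprasp2 and Shank2 were all of this kind, though each kept its call without that library, as the naming rule requires, and several are known from ciliated or secretory epithelium. Cfap69, a protein of the sperm tail and cilia, measured 0.445, 0.210, 0.222 and 0.327 CPM on day 4, against 0.931, 1.51, 0.962 and 22.5 CPM on chow. The groups did not overlap even without the highest value, which was that of chow replicate 4. Slc44a4, a choline transporter family gene, had 1 read over the 4 day 4 libraries and 551 on chow, of which 494 were in chow replicate 4, a ratio of chow to day 4 of 228 (95% counting interval 40.7 to 9018, which covers counting error only). Nme5, with 3 reads on day 4 and 330 on chow, had a ratio of 45.5 (15.4 to 222), and Spag8, with 3 and 239 reads, one of 33.0 (11.1 to 161). Of these chow reads 292 for Nme5 and 213 for Spag8 were in replicate 4, which left 38 and 26 in the other chow libraries.

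The marker genes of that epithelium showed the same dependence. Of 9 tested keratin-bearing epithelium markers 7 fell, and 1 was called without chow replicate 4. Epcam, an adhesion protein of epithelial cells, had 2 reads on day 4 and 1345 on chow, of which 1322 were in replicate 4. Cuzd1, known from epididymis and pancreas, had 0 reads on day 4 and 2574 on chow, 2571 of them in replicate 4, and was at least 355-fold lower on day 4 when its floor is set at 3 counts for the whole group. The part of that library's epithelium in other falls was not tested beyond the fits without it.

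Ranked again without chow replicate 4, an order chosen after the values were seen, the falls were led by Cyp26b1, Slc44a4, Rassf6, Mycl and St6galnac5, with Inmt, Prtn3, Cyp2f2 and Hif3a among the next. Cyp26b1, which breaks down retinoic acid, measured 0.572, 1.26, 0.222 and 0.392 CPM on day 4, against 81.4, 5.81, 2.86 and 10.6 CPM on chow. Day 4 lay below chow throughout, and chow replicate 1 was far above the rest. Cyp26b1 fell by 5.47 ± 1.14 (SE; edgeR adjusted p = 0.00237, and 0.00489 without chow replicate 4). Rassf6, a Ras-association protein linked to apoptosis, measured 0.699, 0.210, 0 and 0 CPM on day 4, against 1.63, 6.28, 7.54 and 2.31 CPM on chow, and fell by 3.94 ± 0.85 (edgeR adjusted p = 0.00279).

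Collagen genes rose across several families. Of 28 tested collagens 14 rose and 2 fell, with a median log2 change of 0.65. Col6a3, a chain of the collagen VI that surrounds adipocytes, measured 258, 826, 724 and 679 CPM on day 4, against 161, 158, 185 and 152 CPM on chow. The groups did not overlap, and day 4 replicate 1 lay nearest to chow. It rose by 1.92 ± 0.32 (SE; edgeR adjusted p = 0.00104), with Col6a2 at 1.78 ± 0.29. Col12a1, a fibril-associated collagen, measured 16.5, 82.4, 80.1 and 70.2 CPM on day 4, against 7.39, 10.7, 3.59 and 11.9 CPM on chow, and rose by 2.90 ± 0.62. The basement membrane chain Col4a2 rose by 1.36 ± 0.23 and Col5a1 by 1.21 ± 0.20. Col4a6 fell by 1.21 and Col8a2 by 2.20, the second with an edgeR adjusted p of 0.150 without chow replicate 4, and Col1a2, a chain of fibrillar collagen I, at 0.53, did not pass.

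Enzymes and chaperones that process collagen rose with it. On the list of collagen hydroxylation, crosslinking and proteolysis 18 of 37 genes rose and 5 fell, with a median of 0.48. Serpinh1, the collagen chaperone HSP47, measured 764, 1257, 1655 and 1477 CPM on day 4, against 557, 367, 335 and 340 CPM on chow, and rose by 1.69 ± 0.30 (edgeR adjusted p = 0.00123). Replicate 1 was the lowest of day 4 and the highest of chow, yet the groups did not overlap. The prolyl hydroxylase P3h1 rose by 0.76 ± 0.13, and the crosslinking enzymes Loxl1 and Lox rose by 0.73 and 1.16. Timp4, a metalloproteinase inhibitor made by adipocytes, measured 70.1, 51.1, 50.8 and 30.6 CPM on day 4, against 355, 431, 139 and 366 CPM on chow, and fell by 2.67 ± 0.42 (edgeR adjusted p = 0.000977). The metalloproteinase Mmp9 fell by 2.29.

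Other matrix genes changed in both directions. Among 48 basement membrane genes and other matrix glycoproteins 14 rose and 7 fell, against 18% and 17.3% of all genes tested. Sparc, a collagen-binding protein, rose by 1.06 ± 0.20, as did the basement membrane linker Nid2 by 1.36 and the core protein of perlecan Hspg2 by 1.16. Dcn, the proteoglycan decorin that coats collagen fibrils, measured 892, 496, 643 and 468 CPM on day 4, against 1540, 1483, 1654 and 1290 CPM on chow, without overlap. It fell by 1.25 ± 0.23 (edgeR adjusted p = 0.00138), as did the related Fmod by 1.69 ± 0.24 and Fbln1 by 1.44 ± 0.22. The biglycan gene Bgn, of the same proteoglycan family as Dcn and Fmod, rose by 1.29.

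**Figure D3:**
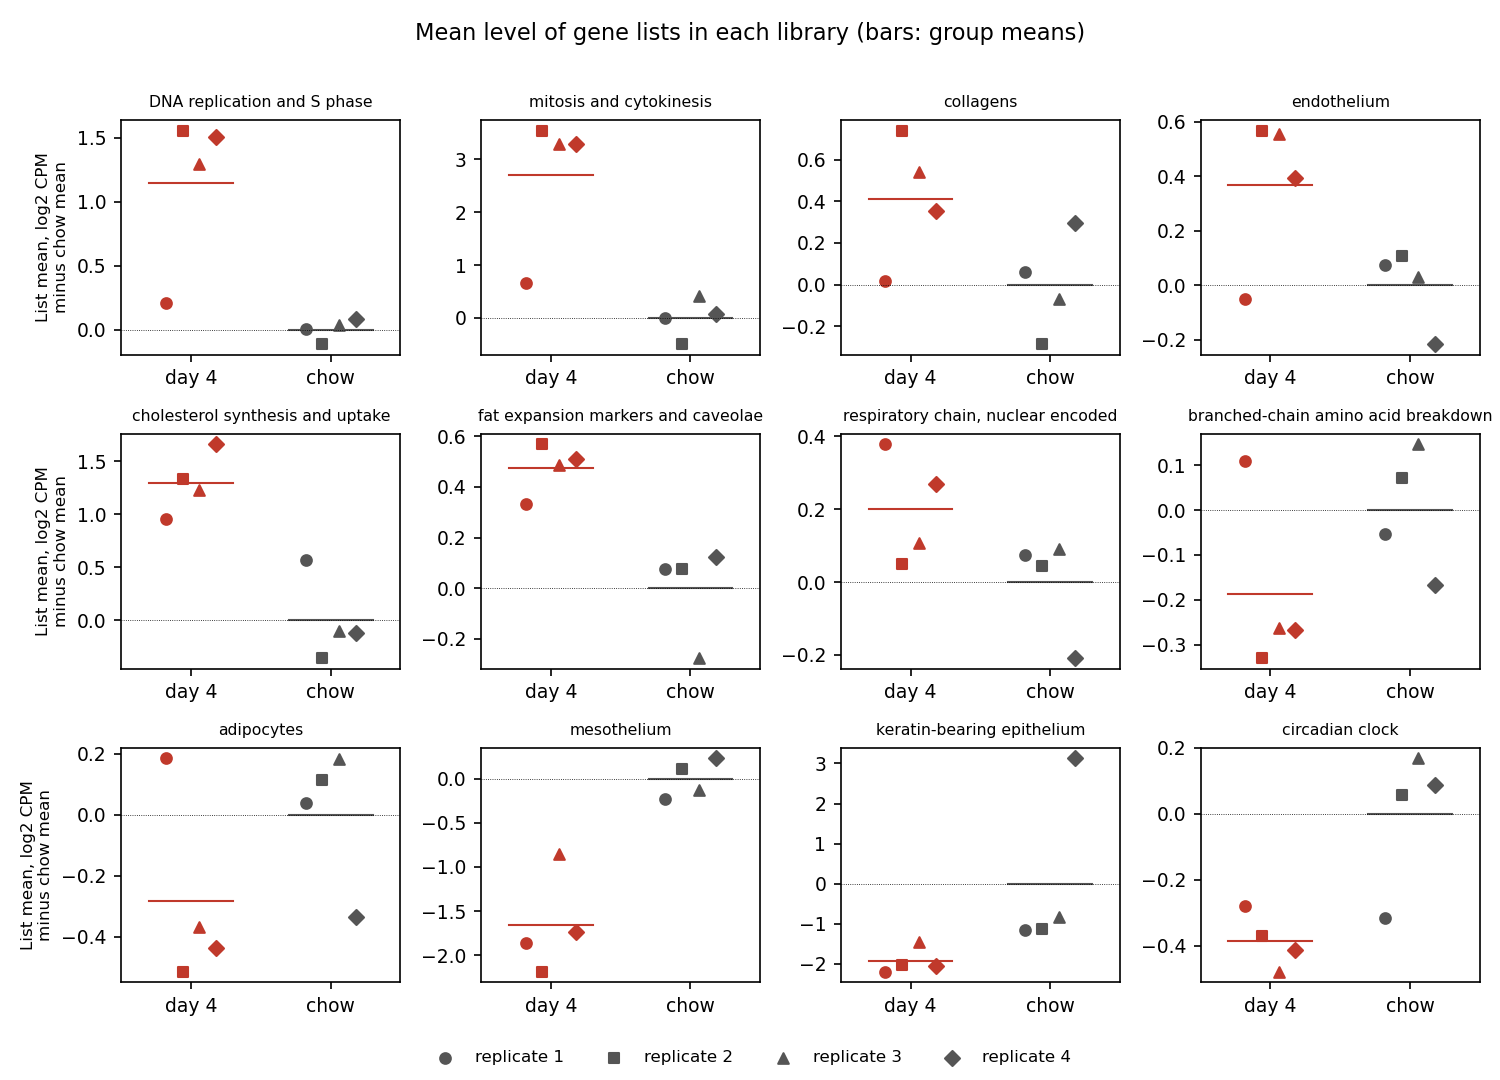
Each panel gives the mean of a gene list in each library, in log2 CPM minus the mean of the 4 chow libraries, with day 4 on the left, chow on the right, a marker shape for each replicate number and a bar at the group mean. In the mitosis panel day 4 replicate 1 sits at 0.66 while the other day 4 libraries sit between 3.29 and 3.54, and in the keratin-bearing epithelium panel chow replicate 4 sits at 3.13.

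Genes that make ribosomes and fold secreted proteins rose by small amounts. Of 55 ribosome biogenesis genes 27 rose and 2 fell, with a median log2 change of 0.29. Rrp12, a factor for maturing ribosomal subunits, measured 18.4, 25, 23.1 and 27.1 CPM on day 4, against 13.3, 10.8, 8.33 and 9.85 CPM on chow. The groups were separate, and the rise was 1.15 ± 0.20 (SE; edgeR adjusted p = 0.00123). Bysl rose by 1.07 ± 0.20, Nhp2 by 0.78 ± 0.15 and the ribosomal RNA methyltransferase Nop2 by 0.72 ± 0.12, while Dkc1 fell by 0.43. Without day 4 replicate 4, 13 of these genes were called higher, and with scaling by library size only 16 were.

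In the endoplasmic reticulum and secretory pathway 23 of 53 genes rose and 1 fell, with a median of 0.25. Hspa5, the chaperone BiP, measured 528, 560, 573 and 569 CPM on day 4, against 379, 394, 300 and 354 CPM on chow, so day 4 varied little and lay above chow throughout. It rose by 0.64 ± 0.13 (edgeR adjusted p = 0.00200). The retrieval receptor Kdelr3 rose by 1.15 ± 0.20, and the transport coat genes Sec24d and Sec23a by 0.71 ± 0.14 each. With scaling by library size only, 8 members were called higher and 3 lower, and 15 were called in all without day 4 replicate 4. Of 29 genes of the unfolded protein and amino acid stress response 10 rose, among them Atf4 (0.55 ± 0.14), and 2 fell, and 6 were called without day 4 replicate 4. The stress sensor Ern1 fell by 0.63 ± 0.13, and the stress gene Ddit3, at 0.66, did not pass.

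Cholesterol synthesis and uptake rose almost as a whole. Of 26 tested genes 22 rose and none fell, with a median log2 change of 1.31 and no negative value. Insig1, the sterol-regulated brake on this pathway, measured 674, 779, 806 and 1285 CPM on day 4, against 208, 85.8, 120 and 77.2 CPM on chow. All day 4 libraries, replicate 1 included, were far above chow. The rise was 2.85 ± 0.49 (SE; edgeR adjusted p = 0.00120). Hmgcs1, an early enzyme of the pathway, measured 716, 618, 678 and 822 CPM on day 4, against 369, 228, 177 and 238 CPM on chow, and rose by 1.49 ± 0.33. Cyp51, a sterol demethylase, measured 78.8, 117, 117 and 175 CPM on day 4, against 57.5, 26.7, 39.8 and 28.2 CPM on chow, and rose by 1.68 ± 0.40. Neither gene overlapped between the groups, and both had their highest chow value in replicate 1. The genes that did not pass were Acat2, Srebf2, Scap and Fdft1, at 0.48, 0.30, 0.11 and 0.01.

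Fatty acid synthesis did not move as a block. Of 29 genes 10 rose and 3 fell, with a median of 0.17, and 8 were called without day 4 replicate 4. Scd2, a desaturase that makes monounsaturated fatty acids, measured 1348, 2314, 2360 and 2919 CPM on day 4, against 1132, 296, 400 and 390 CPM on chow. Replicate 1 was the lowest of day 4 and the highest of chow, and the groups only just did not overlap. It rose by 2.01 ± 0.52 (edgeR adjusted p = 0.00773). Fads3, a member of the desaturase family, rose by 1.05 ± 0.14 and Fads1 fell by 0.82, while Fasn, fatty acid synthase, at 0.07, and Acaca, at -0.86, did not pass.

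Genes of fatty acid uptake and triglyceride synthesis included 11 rises and 4 falls among 34. Fabp5, a fatty acid binding protein, measured 294, 493, 490 and 642 CPM on day 4, against 163, 98.5, 115 and 88.7 CPM on chow, and rose by 2.04 ± 0.33 (edgeR adjusted p = 0.000977). The groups were separate, and replicate 1 of day 4 was the nearest to chow. Pck1, which makes glycerol for triglycerides from small carbon compounds, measured 970, 451, 683 and 494 CPM on day 4, against 1634, 3935, 2984 and 1783 CPM on chow, and fell by 1.99 ± 0.36 (edgeR adjusted p = 0.00125). The acyltransferases Mogat2 and Agpat2 rose by 2.39 and 1.42, and Acsl3, which activates fatty acids, by 1.29 ± 0.23. The uptake receptor Cd36, at 0.02, and the carrier Fabp4, at 0.01, did not pass.

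Among 34 genes of lipolysis and lipid droplet coats 8 rose and 5 fell, against 18% and 17.3% of all genes tested. Of these 34 genes 6 were called without day 4 replicate 4. Adrb3, the beta-adrenergic receptor of fat cells that starts lipolysis, measured 764, 395, 405 and 319 CPM on day 4, against 1150, 1130, 1417 and 881 CPM on chow. The groups did not overlap, and replicate 1 lay nearest to chow. It fell by 1.28 ± 0.30 (SE; edgeR adjusted p = 0.00397). Ptger3, an inhibitory prostaglandin receptor, rose by 1.87 ± 0.43, and Npr3, which clears lipolytic natriuretic peptides, by 1.29 ± 0.29. The lipases Pnpla2 and Lipe, at -0.69 and -0.19, did not pass.

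Fatty acid and ketone oxidation had 10 rises and 3 falls among 30 genes, 5 rises and 3 falls without chow replicate 4, and 7 calls without day 4 replicate 4. Ucp3, a mitochondrial carrier, measured 78.9, 64.5, 77.7 and 90.4 CPM on day 4, against 33.2, 33.1, 26.5 and 25.7 CPM on chow, and rose by 1.41 ± 0.23 (edgeR adjusted p = 0.00104). Here day 4 replicate 1 was within the range of the other day 4 libraries. Cpt1a, which admits fatty acids to mitochondria, rose by 1.04 ± 0.16 and Oxct1, the enzyme of ketone use, by 0.94 ± 0.15.

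The mitochondrial lists moved little. Of 61 nuclear-encoded respiratory chain genes 5 rose, led by Cox7a1 (2.31 ± 0.35), and without chow replicate 4 there were 2 rises. Of 21 citrate cycle genes 5 rose and 1 fell, and without chow replicate 4 there were 2 rises and 1 fall. Branched-chain amino acid breakdown had 1 rise and 4 falls among 23 genes, with the phosphatase Ppm1k falling by 1.20 ± 0.25. Without day 4 replicate 1 there were 10 falls and no rise on that list, whose mean in replicate 1 was 0.11, against -0.33 to -0.26 in the other day 4 libraries. The mitochondrial import and ribosome list had 11 rises among 40 genes, but 2 rises and 1 fall without chow replicate 4 and 1 call without day 4 replicate 4. Calls on the other mitochondrial lists fell to 2 each without day 4 replicate 4.

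Lep, the gene of the satiety hormone leptin, measured 2032, 2677, 2795 and 3075 CPM on day 4, against 903, 547, 374 and 726 CPM on chow. The lowest day 4 library was more than 2-fold above the highest chow library. It rose by 2.05 ± 0.32 (SE; edgeR adjusted p = 0.000926). Angptl8, an insulin-induced inhibitor of lipoprotein lipase, rose by 2.86, and Apln, the peptide apelin, by 2.70 ± 0.57.

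Cfd, the protease adipsin that fat secretes, measured 5764, 956, 1207 and 1188 CPM on day 4, against 8995, 11495, 16582 and 6624 CPM on chow. Day 4 replicate 1 lay just below the lowest chow library, and the rest were far below it. Cfd fell by 2.26 ± 0.60 (edgeR adjusted p = 0.00878). Adipoq, the hormone adiponectin, measured 2947, 1254, 1776 and 1161 CPM on day 4, against 2746, 4128, 4142 and 2509 CPM on chow, and the groups overlapped through day 4 replicate 1. It fell by 0.92 ± 0.31 (edgeR adjusted p = 0.0273), but was not called without day 4 replicate 2 (0.0849), 3 (0.0591) or 4 (0.0986) or chow replicate 2 (0.0743) or 3 (0.0748). The angiotensin precursor Agt fell by 1.74 ± 0.39. In all 4 of 35 tested hormones of fat rose and 5 fell, below the 18% and 17.3% of all genes tested.

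Mest, an imprinted gene that marks fat expansion, rose by 2.79 ± 0.39, with 231, 729, 688 and 723 CPM on day 4, against 98.1, 76.1, 67.3 and 101 CPM on chow. On the list of fat expansion markers and caveolae, the membrane pits of adipocytes, 12 of 23 genes rose and 1 fell. Ehd2, which stabilises caveolae, rose by 0.78 ± 0.12, and Cavin3 and Cav1 by 1.25 and 0.42. The adipocyte transcription factors gave 7 rises and 9 falls among 37 genes, against 18% and 17.3% of all genes tested. Without day 4 replicate 4 there were 5 rises and 3 falls. Lmo4 rose by 0.73 ± 0.13 and Zfp423 by 0.63 ± 0.11, Ebf1 fell by 0.74 ± 0.15, and Pparg and Cebpa, the master regulators of adipocytes, stood at 0.19 and 0.05 without passing.

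**Figure D4:**
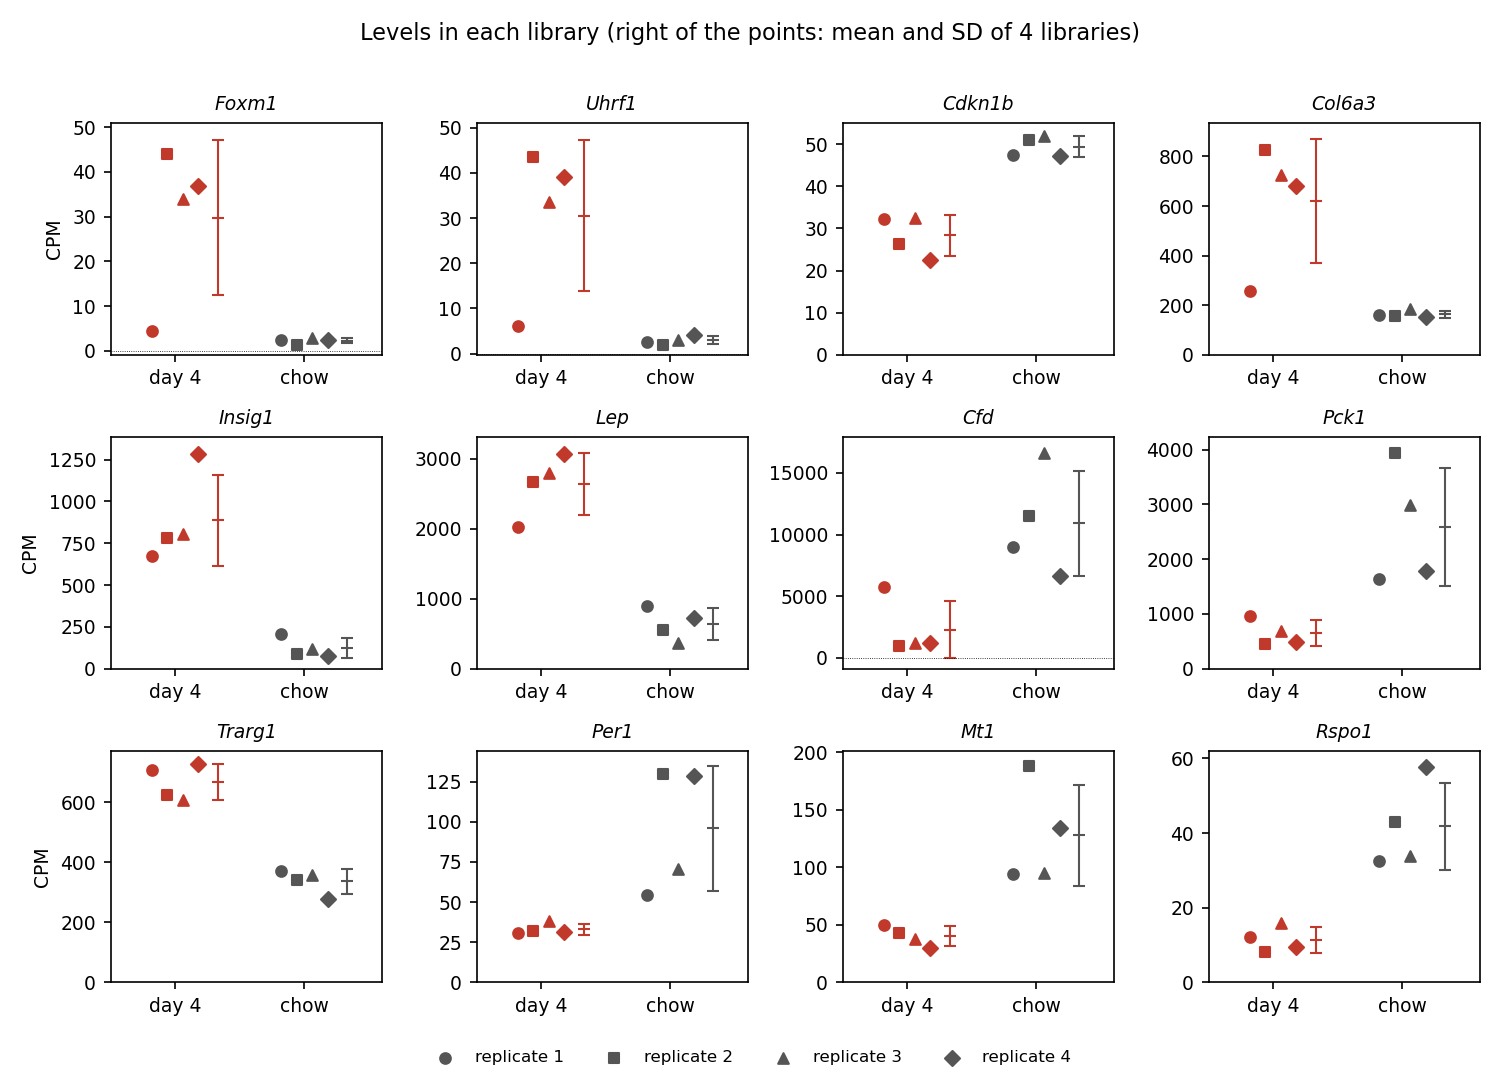
Each panel gives the CPM of a gene in each library, with day 4 on the left and chow on the right, a marker shape for each replicate number, and the mean with its SD over 4 libraries beside the points. In all 12 genes shown the day 4 libraries do not overlap with chow, and day 4 replicate 1 lies apart from the others in Foxm1, Uhrf1, Col6a3 and Cfd but not in Trarg1, Per1 or Mt1.

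Shares called among genes of glucose uptake and insulin signalling were close to those of all genes tested (18% higher, 17.3% lower), so single members are described. Trarg1, a protein of the vesicles that carry the insulin-regulated transporter GLUT4, measured 707, 623, 607 and 728 CPM on day 4, against 372, 341, 359 and 278 CPM on chow. The groups were widely separate and varied little within themselves. It rose by 0.98 ± 0.12 (SE; edgeR adjusted p = 0.000654). The vesicle fusion genes Vamp3 and Snap23 rose by 0.69 ± 0.12 and 0.47 ± 0.10, and Vamp2 fell by 0.56 ± 0.13. Slc2a4, the GLUT4 transporter gene, stood at -0.18 without passing, and the fructose transporter gene Slc2a5 fell by 3.32. The list gave 8 rises and 6 falls among 31 genes.

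From the insulin receptor to AKT and mTOR 12 of 48 genes rose and 9 fell. Insr, the insulin receptor, fell by 0.42 and the kinase gene Akt1 rose by 0.33. Components of the mTORC2 complex went opposite ways, with Prr5 rising by 0.65 ± 0.11 and Rictor falling by 0.52 ± 0.10. Irs2, an adaptor of the insulin receptor, measured 24.5, 36.8, 24.6 and 20.5 CPM on day 4, against 45.1, 57.5, 66.3 and 45.8 CPM on chow, without overlap. It fell by 1.04 ± 0.35 (edgeR adjusted p = 0.0267), but was not called without day 4 replicate 1 (0.0547), 3 (0.0553) or 4 (0.0852) or chow replicate 3 (0.0721).

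Glycolysis had 10 rises and 3 falls among 30 genes, and 6 calls without day 4 replicate 4. Pfkfb4, which makes the activator of phosphofructokinase, measured 35.2, 58.0, 44.8 and 52.4 CPM on day 4, against 19.8, 14.6, 12.6 and 18.9 CPM on chow, and rose by 1.52 ± 0.22 (edgeR adjusted p = 0.000669). Day 4 lay above chow throughout. Tpi1, of the lower pathway, rose by 1.26 ± 0.22, and the muscle-type enolase gene Eno3 fell by 1.26 ± 0.25.

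Of 49 autophagy genes 10 rose and 10 fell, near the 18% and 17.3% of all genes tested, and 11 were called without day 4 replicate 4. Trp53inp2, which brings the autophagy machinery to its membranes, measured 1021, 1700, 1910 and 1978 CPM on day 4, against 473, 337, 367 and 422 CPM on chow. Even the lowest day 4 library was more than 2-fold above all of the chow libraries. It rose by 2.05 ± 0.21 and had an edgeR adjusted p = 0.000101. The autophagy receptor Optn rose by 1.17 ± 0.24, and the autophagosome coat gene Gabarapl1 fell by 0.97 ± 0.19. Of 46 lysosome genes 7 rose and 9 fell, also near the shares of all genes tested. The proton pump subunits Atp6v1b2 and Atp6v0d1 rose by 0.59 ± 0.10 and 0.42 ± 0.08, and the membrane protein Cd63 fell by 0.84 ± 0.17.

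Clock genes and genes on the list of glucocorticoid-responsive and immediate early genes were mostly lower where they changed. On the clock list 2 of 19 genes rose and 7 fell, and 2 were called without day 4 replicate 4. Per1, a clock gene that glucocorticoids also induce, measured 30.9, 31.9, 38.2 and 31.3 CPM on day 4, against 54.6, 130, 70.4 and 128 CPM on chow, and fell by 1.54 ± 0.35 (SE; edgeR adjusted p = 0.00361). Every day 4 library lay below every chow library, and day 4 varied little. The core clock genes Arntl, Per2 and Dbp, at 0.21, -0.87 and -1.03, did not pass, and the time of day at sampling is not given in the sources used here.

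On the list of glucocorticoid-responsive and immediate early genes 1 of 34 rose and 9 fell. Mt1, a metal-binding metallothionein, measured 49.9, 43.3, 38.2 and 29.9 CPM on day 4, against 93.9, 188, 95.3 and 134 CPM on chow, without overlap, and fell by 1.66 ± 0.29 (edgeR adjusted p = 0.00119). Its neighbour Mt2 fell by 2.34 ± 0.48 and Zbtb16, a glucocorticoid-induced zinc finger factor, by 1.76. The immediate early genes Fos, Jun and Egr1, at 0.21, -0.20 and -0.10, did not pass.

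Among 42 genes of oxidant defence, heme and hypoxia 10 rose and 9 fell, near the shares of all genes tested, and 10 were called without day 4 replicate 2. The secreted peroxidase Gpx3 fell by 2.16 ± 0.40 and the glutathione transferase Gstm1 by 1.04 ± 0.19. Alas1, the first enzyme of heme synthesis, rose by 1.05 ± 0.16 and Hif1a, the oxygen-sensing factor, by 1.22 ± 0.24. In retinoid metabolism 2 of 18 tested genes rose and 4 fell, with Aldh1a1, which makes retinoic acid, falling by 0.82 ± 0.15 and its relative Aldh1a7 rising by 1.64 ± 0.34.

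Mesothelium markers fell nearly throughout. Of 17 tested genes of this cell layer, which covers the fat pad, 15 fell and 1 rose, with a median log2 change of -1.75, and the same numbers were called without chow replicate 4. Rspo1, a secreted activator of Wnt signalling, measured 12.1, 8.20, 16 and 9.48 CPM on day 4, against 32.5, 43.0, 33.9 and 57.8 CPM on chow. All of day 4 lay below chow, and Rspo1 fell by 1.88 ± 0.26 (SE; edgeR adjusted p = 0.000654). Cdh3 fell by 2.10, Upk1b by 1.75 ± 0.29 and Msln, the surface protein mesothelin, by 1.57. The list's summed level was 641 to 1041 CPM on day 4 and 1101 to 1275 CPM on chow, and of this Igfbp5, the member that rose (0.67), made up 598 CPM on day 4 and 377 CPM on chow on average. Day 4 replicate 1 was as low as the rest for these markers, with a list mean of -1.86, against -2.19 to -0.85 in the other day 4 libraries.

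Endothelial markers rose in part, with 8 rises among 20 genes and a median of 0.37, and 5 calls without day 4 replicate 2 or 4. Ramp2, a partner of the adrenomedullin receptor in vessels, measured 78.1, 90.1, 125 and 88.2 CPM on day 4, against 40.1, 40.7, 44.3 and 35.9 CPM on chow, and rose by 1.24 ± 0.16 (edgeR adjusted p = 0.000654). No day 4 library reached down to chow in Ramp2. The list mean, in log2 CPM relative to the chow mean, was -0.05 in day 4 replicate 1. This lay within the chow range of -0.22 to 0.11, and the other day 4 libraries were at 0.39 to 0.57. Eng and Kdr, a receptor for vascular endothelial growth factor, rose by 0.72 ± 0.17 and 0.65 ± 0.16, while Vwf and Cldn5, at -0.05 and 0.01, did not pass. The summed level was 1743 to 3084 CPM on day 4 and 1463 to 1897 CPM on chow, with day 4 replicate 1 the lowest on day 4. Among smooth muscle and pericyte markers 2 of 15 rose, with 5 called without day 4 replicate 1 and 1 without day 4 replicate 4. Acta2, smooth muscle actin, measured 52.7, 288, 273 and 278 CPM on day 4, against 77.1, 109, 59.9 and 120 CPM on chow, so replicate 1 lay below all of the chow libraries and the rest far above. Its rise of 1.28 ± 0.38 (edgeR adjusted p = 0.0163) was not called without day 4 replicate 4 (0.0575) or chow replicate 3 (0.0514).

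Markers of progenitors and fibroblasts were lower for the surface receptor Pdgfra (fell by 1.11 ± 0.27), the protease gene Dpp4 (fell by 1.28 ± 0.30) and the actin-severing protein Gsn (fell by 1.49 ± 0.34), and higher for Thy1 (1.35). In total 3 of 15 rose and 5 fell, against 18% and 17.3% of all genes tested. Of 25 macrophage and monocyte markers 4 fell and none rose, a share near the 17.3% of all genes tested, and without day 4 replicate 4 there were 1 fall and 1 rise. The efferocytosis receptor Mertk fell by 0.60 ± 0.16, and Adgre1, the F4/80 antigen, stood at -0.13 without passing. Of 20 tested T and NK cell markers 3 fell, again near the 17.3% of all genes tested. Without day 4 replicate 1, 7 of these markers fell, and so did 2794 of the 15254 genes tested. The T and NK cell markers were of few reads, with a summed level of 15.6 to 33.3 CPM on day 4 and 33.6 to 52.7 CPM on chow.

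Set beside the other high-fat days, day 4 was the furthest from chow by count. The same fit, against the same chow libraries, called 670 genes on day 2 (4.39% of those tested; 2.43% higher, 1.96% lower). It called 527 genes on day 6 (3.45%; 1.99% higher, 1.46% lower) and 180 on day 14 (1.18%; 0.878% higher, 0.302% lower). Mesothelium markers had median log2 changes against chow of -1.33, -1.75, -0.88 and -0.76 on days 2, 4, 6 and 14. Cholesterol genes had medians of 0.73, 1.31, 0.46 and 0.19, and mitosis genes of 0.30, 3.28, 1.84 and 0.59. The lists were drawn up with the day 4 response known.

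Tested directly, day 4 differed from day 2 in 366 genes (2.40%), 327 higher (2.14%) and 39 lower (0.256%). Of 61 mitosis genes 55 were higher on day 4 than on day 2, and so were 21 of 48 replication genes and 8 of 28 collagens. The count of 366 fell to 0 in each fit without day 4 replicate 2, 3 or 4 or without day 2 replicate 1, 2 or 3, and with scaling by library size only, and it was 2251 without day 4 replicate 1. Day 4 differed from day 14 in 1428 genes (9.36%), 729 higher (4.78%) and 699 lower (4.58%), with 59 mitosis genes and 39 replication genes higher and 1 mitosis gene lower on day 4. This count of 1428 fell to 0 without day 4 replicate 2, 3 or 4 or day 14 replicate 1 or 2, to 567 without day 14 replicate 4, and was 2638 without day 4 replicate 1. On the list of 34 glucocorticoid-responsive and immediate early genes 8 were lower on day 4 than on day 14 and none was higher.

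No gene passed between day 4 and day 6 in edgeR's quasi-likelihood test (0.0%), where the smallest adjusted p was 0.240 and 2492 genes (16.3%) had an unadjusted p under 0.05. Both groups were uneven. The mitosis list mean was 0.66 to 3.54 on day 4 and 0.36 to 2.91 on day 6, where replicate 4 was the highest. Without day 4 replicate 1 the count was 785, and without day 6 replicate 4 it was 432.

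**Figure D5:**
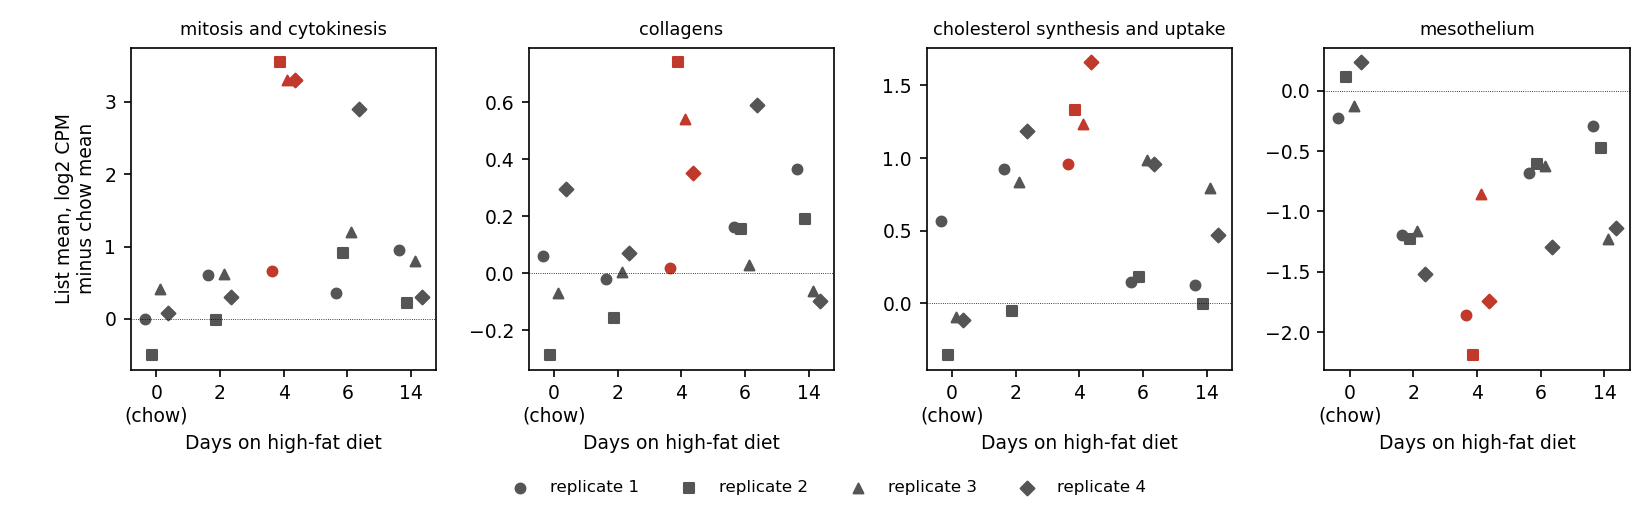
Each panel gives the mean of a gene list in each library, in log2 CPM minus the chow mean, by days on the high-fat diet, with day 4 in red and a marker shape for each replicate number. The mitosis means lie between -0.02 and 0.62 on day 2, between 0.66 and 3.54 on day 4, between 0.36 and 2.91 on day 6 and between 0.23 and 0.95 on day 14, and the mesothelium means lie between -2.19 and -0.85 on day 4.

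The size of the response in each library was also read from genes chosen without it, though against the same chow libraries. Each day 4 library is therefore set only beside the rest of day 4, in its own set of genes. Fitted without day 4 replicate 1, 2056 genes were called and changed by more than 2-fold. Their median distance from the chow mean, on the log2 scale and in the direction of the change, was 0.78 in replicate 1 and 1.53 in the other 3 day 4 libraries. For the genes chosen to be higher it was 0.55 in replicate 1, against 1.57 in the rest, and for those chosen to be lower it was 0.92, against 1.50. Left out in the same way, day 4 replicates 2, 3 and 4 had median distances of 1.64, 1.50 and 1.83. In the rest of day 4 these were 1.49, 1.52 and 1.55. Those sets held 1516, 1573 and 1199 genes, chosen with replicate 1 in the fit, and are unlike the set of 2056.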

How the data were processed

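The authors deposited 1 table of read counts per gene, not normalized. Per the labels, column-purified total RNA went into Illumina TruSeq library preparation. CASAVA, STAR, featureCounts, limma and R 3.0 are named, without their roles, in the submitters' processing notes. The genome build, annotation and strand setting are not given in the sources used here, so overlapping, antisense and near-identical genes are uncertain.

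Counts were analysed in R 4.3.3 with edgeR 4.0.16. The filter filterByExpr (minimum count 10, total 15) left 15254 genes, TMM factors scaled the libraries, and all 20 libraries were fitted with group as the only term and 15 residual degrees of freedom (robust quasi-likelihood test). Benjamini-Hochberg adjustment ran over all genes tested, and genes were called at an adjusted p under 0.05. CPM values use TMM-scaled totals, and SEs were derived from the F statistic. Steps were tested on simulated data.

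Members, the 47 lists and the rule for named genes were chosen with earlier results of these data known. The rule took the 12 largest rises and falls among called genes with at least 1 CPM, no overlap between groups and a call in each of the 8 fits without 1 library, passing over clone and pseudogene names. The called members with the lowest adjusted p, at most 4, were added for every list. Other members given with a value were picked for their function after the values were seen. Promoters were matched by symbol or gene ID to RefSeq windows. With 3 reads or fewer in a group no fitted change is given, and intervals and floors cover counting error only.

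Alternatives were DESeq2 size factors, library size only, no filter, a stricter filter, DESeq2 1.42.0, limma-voom 3.58.1 with and without quality weights, a fit of only the 8 libraries, a replicate block, other thresholds and each library left out. Some genes that these rules name are not reported here.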

Additional observations from a re-analysis of the deposited data

Results flagged for a closer look

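Of 172 groups of 4 libraries examined, 16 held a library far from the other 3 by Dixon's criterion, and chance alone gives about 1 in 20. Day 4 replicate 1 accounted for 4. It had 5764 CPM of Cfd against 956 to 1207 CPM in the other day 4 libraries and 52.7 CPM of Acta2 against 273 to 288. Its list mean, in log2 CPM relative to the chow mean, was 0.66 for mitosis against 3.29 to 3.54 and 0.11 for branched-chain amino acid breakdown against -0.33 to -0.26. Elsewhere on day 4, Per1 was 38.2 CPM in replicate 3 against 30.9 to 31.9, the dendritic cell list mean was -0.0617 in replicate 3 against -0.32 to -0.28, and the lysosome list mean was -0.23 in replicate 4 against 0.01 to 0.03.

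Chow replicate 1 was far above the other chow libraries for 4 genes, with 6.17 CPM of Ncan (2.93 to 3.06 in the others), 81.4 CPM of Cyp26b1 (2.86 to 10.6), 557 CPM of Serpinh1 (335 to 367) and 1132 CPM of Scd2 (296 to 400). In all but Cyp26b1 this was toward the day 4 level. Chow replicate 4 had list means of 6.75 for epididymis, vas deferens and testis (-2.68 to -1.68 in the others), 3.13 for keratin-bearing epithelium (-1.16 to -0.84) and -0.21 for the respiratory chain (0.04 to 0.09). The first of these is the value of Cuzd1 alone, the only 1 of the 17 listed markers that was tested. The fat expansion and caveolae mean was -0.28 in chow replicate 3 (0.07 to 0.12) and the nerve and Schwann cell mean was -0.38 in chow replicate 2 (0.09 to 0.18).

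The response also differed between high-fat days under direct tests: 366 genes were called between day 4 and day 2 and 1428 between day 4 and day 14.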

How the results depend on the processing

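The 5381 calls between day 4 and chow came to 4445 to 6599 under 9 other scalings, filters, tools and designs, the replicate block among them with 5495 calls. The replicate numbers were not found to pair the samples, since same-numbered libraries had correlations of their deviations of -0.05 to 0.04. Leaving out 1 library gave 3225 to 5698 calls (1696 to 2904 higher, 1529 to 2794 lower). An adjusted p under 0.01 left 2635 (1436 higher, 1199 lower), and a change above 2-fold left 1735 (651 higher, 1084 lower), both fewer by construction. With library size only, 1750 genes were higher. Between day 4 and day 2 the 366 calls became 0 with library size only, 551 with the replicate block and 0 to 2251 without 1 library. The block changed the call of no named gene between day 4 and chow. Between day 4 and day 6 the calls were 0 to 785, and between day 4 and day 14 0 to 2638, without 1 library. Causes beyond construction were not tested. Of 181 named genes called, 154 kept the call in all 8 fits without 1 library, 21 lost it under another tool, filter, scaling or design, and none reversed. The naming rule favours such numbers, since it required these calls of the largest changes and took list members by lowest adjusted p. Of all 5381 genes called, 2886 kept the call in all 8 fits. Among the day 4 and chow libraries depth was lowest in day 4 replicates 2 and 3, and day 2 replicate 1 was lower still, which limits genes of few reads.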
